A study of Mus musculus with 22 samples.

Results

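The work followed cardiac fibroblasts while retrovirus turned them towards induced cardiomyocytes, heart-muscle-like cells made directly from another differentiated cell. The subject here is 1 step of that course, from day 5 to day 7 after transduction. It is read from the 2 day 7 arrays against the 2 day 5 arrays of cells that received MGT, a single transcript carrying the cardiac transcription factors Mef2c, Gata4 and Tbx5. These are 4 of the 22 arrays of the series, and they were chosen by their labels alone. They measured 18089 genes. All cells came from CD1 mice carrying aMHC-GFP, a reporter under the control of the promoter of cardiac alpha myosin heavy chain. The series also holds untransduced cardiac fibroblasts at day 0 and, at days 3, 5, 7, 10 and 14, cells transduced with MGT or with lacZ, a control gene, with 2 arrays a group. The lacZ cells of days 5 and 7 carry the same strain and reporter and give the same step with the control virus. Ages are not stated, and the labels name no sorting of transduced or GFP-positive cells. They also do not say whether the 2 samples of a group came from separate cultures or animals. A p-value here thus sets a step against the spread between samples of a group, pooled over all 22 arrays, which may be technical spread.

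In the heart the working muscle cell is built around the sarcomere, in which myosin thick filaments pull on actin thin filaments anchored at the Z-disc. Calcium released from the sarcoplasmic reticulum starts each contraction, and ion channels set its rhythm. Mef2c, Gata4 and Tbx5 switch on many of these genes in the embryo, and together they can do so in a fibroblast, which otherwise makes collagen and other matrix proteins. Reprogramming is gradual, so a step between neighbouring days shows which of these programmes were still moving.

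Each array reads a probe as fluorescence of Cy3-labelled RNA. A level below is the log2 signal minus the 75th percentile of that array, and a step is the day 7 mean minus the day 5 mean, so that 1 unit is a doubling. A step was called where its adjusted p in limma, with the spread pooled over all 22 arrays and Benjamini-Hochberg adjustment over the 18089 genes, was under 0.05. Fibroblast identity held against its markers: Col1a1, the main fibrillar collagen, stood at 7.39 and 7.60 on the day 5 arrays and 7.45 and 7.32 on the day 7 arrays of MGT cells, and 31 of 32 fibroblast markers were well above background on all 4. Days 5 and 7 lie on different slides, in different scans and in different rows, row 2 at day 5 and row 1 at day 7. Slide, scan, row and day thus cannot be told apart within MGT cells. The share of spots well above background was 57.4% and 60.2% at day 5 and 65.8% and 65.2% at day 7, and its part in the steps of dim genes was not tested. The lacZ samples of each day lie on the same slides and rows as the MGT samples, at 54.7% and 51.6% against 61.2% and 64.3%. The difference between the 2 steps thus cancels a slide or row shift that both share. The median absolute difference between the 2 samples of an MGT group was 0.106 at day 5 and 0.0948 at day 7.

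Between days 5 and 7 MGT cells raised heart muscle genes, interferon-response genes and cholesterol synthesis genes, and lowered genes of cell division and of endothelial cells. In all, 3480 genes (19.2% of those tested) passed the test, 1770 higher (9.78%) and 1710 lower (9.45%) at day 7. Leaving out 1 of the 4 arrays lowered the count, to 2242 without the first and 1910 without the second day 5 array, and to 2049 without the first and 1872 without the second day 7 array. Of the 3480, 462 rose at least 2-fold and 210 fell at least 2-fold. This balance rests on the processing: the counts were 306 and 68 after normexp background correction with quantile normalization, 553 and 139 after quantile normalization alone, 364 and 78 in the deposited table, 232 and 69 with only probes above background on all arrays, and 436 and 478 with no filter on dim probes. The median step over all genes was -0.03. Among the 15512 genes well above background on all 4 arrays, 1614 rose and 1606 fell. The lacZ cells changed more genes over the same days: 4951 (27.4%), with 2520 higher (13.9%) and 2431 lower (13.4%). The MGT and lacZ steps share no samples, though they share slides. They had 2083 called genes in common, which is 59.9% of the MGT calls and 42.1% of the lacZ calls. Of these, 1034 rose in both and 918 fell in both, 82 rose with MGT and fell with lacZ, and 49 did the opposite. Tested directly, the 2 steps differed for 941 genes (5.2%), 484 with the MGT step above the lacZ step (2.68%) and 457 below it (2.53%). That count is sensitive to 1 sample outside the comparison: without the second lacZ day 14 array, whose 75th percentile was 729 against 1285 to 2124 for the others, the median standard error of the difference over genes was 0.139 against 0.177, and 1681 genes differed.

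**Figure D1:**
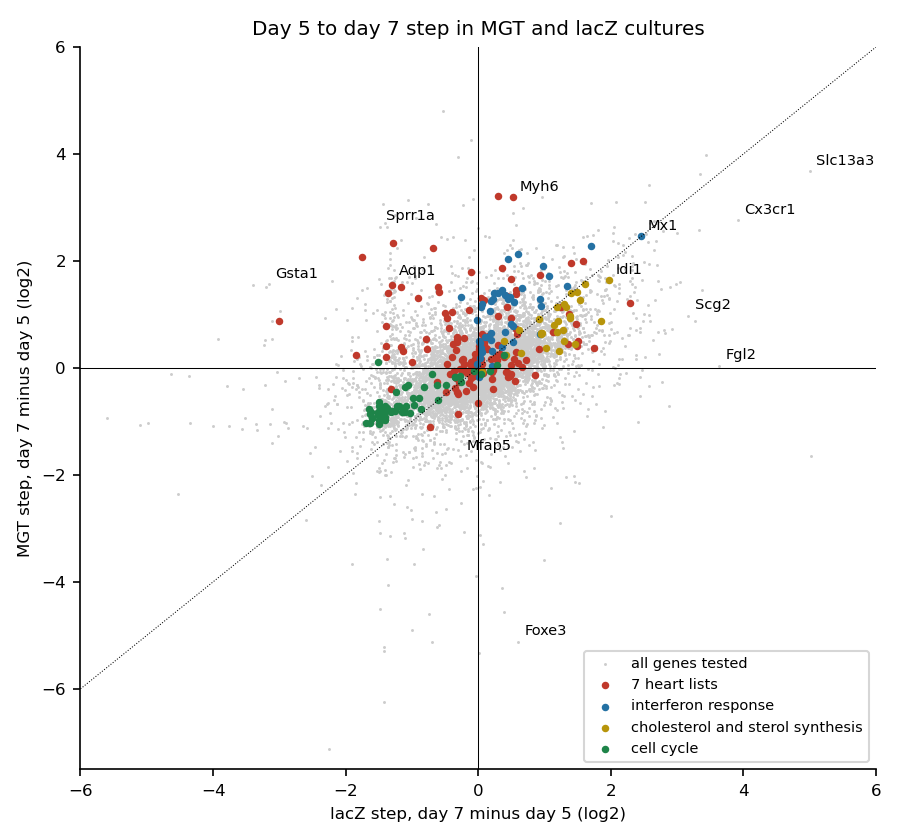
Each point is a gene, with its lacZ step (day 7 minus day 5, log2) on the horizontal axis and its MGT step on the vertical axis; the dotted line marks equal steps and colours mark gene lists. Most cell cycle genes lie below 0 on both axes, most sterol genes above 0 on both, most interferon genes rise further with MGT, and Myh6 stands at 3.20 with MGT against 0.52 with lacZ.

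The delivered factors themselves did not pass the test. Mef2c, which specifies muscle genes, read 1.67 and 1.55 at day 5 and 0.84 and 0.74 at day 7 with MGT, a step of -0.82 (SE 0.52, adjusted p = 0.32). The samples of the 2 days do not overlap, but the pooled error is wide: the lacZ day 5 arrays read -1.74 and -4.13, and with only the 4 MGT arrays in the fit the adjusted p was 0.0231. Gata4, a zinc finger factor of heart and gut, stepped by 0.18 (SE 0.08, adjusted p = 0.146). Tbx5, a T-box factor of the heart and forelimb, stepped by -0.01 (SE 0.25, adjusted p = 0.988). The probes were not assigned here to the delivered or the endogenous transcript.

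Heart muscle genes went on rising from day 5 to day 7 with MGT. Over 7 lists of heart genes combined (thick filament, thin filament, Z-disc and intercalated disc, calcium handling, ion channels, cardiac transcription factors, cardiac metabolism and hormones) 42 of 140 measured genes rose and 5 fell, with a median step of 0.26 against -0.03 over all genes. The number that rose was 30 to 46 without any 1 array, while the 5 that fell became 2 without the second array of either day and 3 without the first day 7 array. Of the 124 well above background on all 4 MGT arrays, 39 rose and 5 fell. With lacZ, 18 of the 94 that were well above background on its 4 arrays rose and 12 fell, with a median of -0.02. These are unlike sets of genes. Tested directly, 25 of the 140 had a larger step with MGT and 8 a smaller one, against 2.68% and 2.53% of all genes. Among the 93 well above background on all 8 arrays the counts were 14 and 7. For most heart genes a difference from lacZ was thus not called. In RNA from a whole dish, more cells that express a gene and more RNA per cell cannot be told apart.

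The thick filament was led by the myosin heavy chains. Myh6, the alpha heavy chain of the adult mouse heart and the gene whose promoter drives the reporter, read 3.23 and 2.99 at day 5 and 6.42 and 6.20 at day 7. It rose 9.19-fold (3.20, SE 0.14, adjusted p = 5.96e-08), the day 7 pair lying far above the day 5 pair. In lacZ cells the same probe read -1.95 and -1.83, then -1.28 and -1.45, a step of 0.52, and the steps differed by 2.68 (SE 0.20, adjusted p = 2.15e-05). Its probe lies at chr14:55560774-55560833 in mm9, near the 3' end of the transcript. Myh7b, a myosin heavy chain of slow and cardiac muscle, read -2.02 and -2.0 at day 5 and 1.23 and 1.17 at day 7, a 9.25-fold rise (3.21, SE 0.24, adjusted p = 2.73e-06). Myh7, the beta heavy chain of the fetal heart, rose by 1.37 (SE 0.20, adjusted p = 0.000435), and Mybphl, a myosin binding protein of the atria, by 2.33. These 4 of 16 thick filament genes rose and none fell. Myh6 and Myh7 are close in sequence, so their probes could share some signal. The bases just before the Myh6 start are shown because this gene had one of the steepest rises of a bright gene in the step and its promoter is the reporter's: the 250 bases upstream of the RefSeq start (GRCm38.p6, chr14:54966608-54966857, minus strand).

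Myh6 promoter: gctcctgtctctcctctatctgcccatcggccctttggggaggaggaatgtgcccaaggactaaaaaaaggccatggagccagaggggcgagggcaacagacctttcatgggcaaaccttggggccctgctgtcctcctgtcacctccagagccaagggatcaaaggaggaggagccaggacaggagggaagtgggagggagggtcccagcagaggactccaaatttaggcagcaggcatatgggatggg

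No capitals appear in it because none of its letters match the core of a MEF2 element, spelled CTA, 4 free bases and TAG, on either strand. That motif stands in the same window of 9 of 104 heart-list genes found in the RefSeq table (8.65%) and of 3.23% of 27025 promoters. No heart-list gene that holds it passed the test in the MGT step, in either direction.

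Of 16 thin filament genes 2 rose and 1 fell, near the 9.78% and 9.45% of all genes. Tnnc1, the calcium-binding troponin of slow and cardiac muscle, read 0.41 and 0.53 at day 5 and 1.65 and 1.56 at day 7 (1.14, SE 0.16, adjusted p = 0.000313). Actc1, cardiac actin, was already among the brightest heart genes, at 7.98 and 8.08, and reached 8.52 and 8.36. Its call, 0.41 with adjusted p = 0.0221, was lost without either day 5 array or without the first day 7 array, at adjusted p = 0.126, 0.0626 and 0.16. Tnnt2, the cardiac troponin T often used to score reprogramming, and chosen here after its values were seen, read 7.96 and 8.10 at day 5 and 8.02 and 7.94 at day 7, a step of -0.05 (SE 0.12, adjusted p = 0.831). Myl4, an atrial myosin light chain chosen in the same way, stayed within its spread as well, with a step of -0.11 (SE 0.11, adjusted p = 0.564). Titin, Ttn, stepped by 0.38 (SE 0.33, adjusted p = 0.498) after a rise of 1.80 from day 3 to day 5.

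At the Z-disc and intercalated disc 7 of 24 genes rose and 3 fell. Dsp, the desmosomal plaque protein desmoplakin, read 3.75 on both day 5 arrays and 4.82 and 4.75 at day 7, a rise of 1.04 (SE 0.14, adjusted p = 0.000215). With lacZ it stepped by -0.39, and the difference of 1.43 passed the test (adjusted p = 0.00113). Tcap, telethonin, which caps titin at the Z-disc, rose by 1.42 (SE 0.29, adjusted p = 0.00398) from 1.38 and 1.47 to 2.87 and 2.82; with only the 8 arrays of days 5 and 7 in the fit its adjusted p was 0.0667. The count of Z-disc genes that rose drops to 4 without the second day 5 array or without the second day 7 array. The 3 that fell become 1 without the second day 5 array, without either day 7 array, with quantile normalization and with the mean of a gene's probes.

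Calcium handling had the widest share of rising genes among the contractile lists: 11 of 21 rose and none fell, with a median step of 0.48. Without the first day 7 array 7 of them passed. Atp2a2, the pump that returns calcium to the sarcoplasmic reticulum, read 3.95 and 3.86 at day 5 and 5.30 and 5.21 at day 7 (1.35, SE 0.10, adjusted p = 2.25e-06). Its lacZ step was 0.43, and the difference of 0.91 passed the test (adjusted p = 0.00211). Srl, sarcalumenin, a calcium-binding protein in the lumen of that store, rose from -1.76 and -1.99 to 0.37 and 0.34 (2.23, SE 0.19, adjusted p = 8.29e-06). Trdn, triadin, which ties the release channel to its calcium buffer, rose by 1.96 (SE 0.26, adjusted p = 0.000215). The release channel itself, Ryr2, stepped by 0.15 (SE 0.30, adjusted p = 0.788). It was already at 1.42 and 1.17 at day 5, and is named for its role outside the naming rule. Pln, the inhibitor of the pump, was not above background at day 5 and was above it at day 7, at -4.48 and -4.47, at least 4.235-fold higher (adjusted p = 0.0193). The call did not pass without the second day 5 array (adjusted p = 0.207) or without the first or second day 7 array (adjusted p = 0.0849 and 0.0885).

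Ion channel genes moved one way: 7 of 19 rose and none fell. Kcnh2, the potassium channel of late repolarisation, rose by 1.09 (SE 0.19, adjusted p = 0.00166), and Kcnd2, a channel of the early outward current, rose by 1.45 (SE 0.25, adjusted p = 0.00152). Both were brighter on both day 7 arrays than on both day 5 arrays. Of 27 cardiac transcription factors 2 rose and none fell, against 9.78% and 9.45% of all genes. Hopx, a homeodomain cofactor of heart development, was one, from -0.25 and -0.42 to 1.34 and 1.57 (1.79, SE 0.16, adjusted p = 1.26e-05). With lacZ it read between -3.68 and -3.47 on all 4 arrays, and the steps differed by 1.90 (adjusted p = 0.000469).

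Genes of cardiac metabolism and hormones rose in 9 of 17 cases and fell in 1, with a median step of 0.55. Mb, myoglobin, the oxygen store of muscle, rose from 1.06 and 1.03 to 2.85 and 2.96 (1.86, SE 0.37, adjusted p = 0.00347). Pygm, muscle glycogen phosphorylase, rose by 1.66 (SE 0.12, adjusted p = 1.67e-06) against 0.49 with lacZ, a difference of 1.17 (adjusted p = 0.0013). Cox8b, a subunit of cytochrome oxidase found in muscle and brown fat, rose by 2.0 with MGT and by 1.58 with lacZ, and that difference did not pass the test (0.42, SE 0.23, adjusted p = 0.366). The member that fell was Nppa, the atrial natriuretic hormone, named after its value was seen. It read 2.85 and 2.84 at day 5 and 1.68 and 1.80 at day 7, a fall of 1.10 (SE 0.15, adjusted p = 0.000214), and its lacZ step was -0.73.

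**Figure D2:**
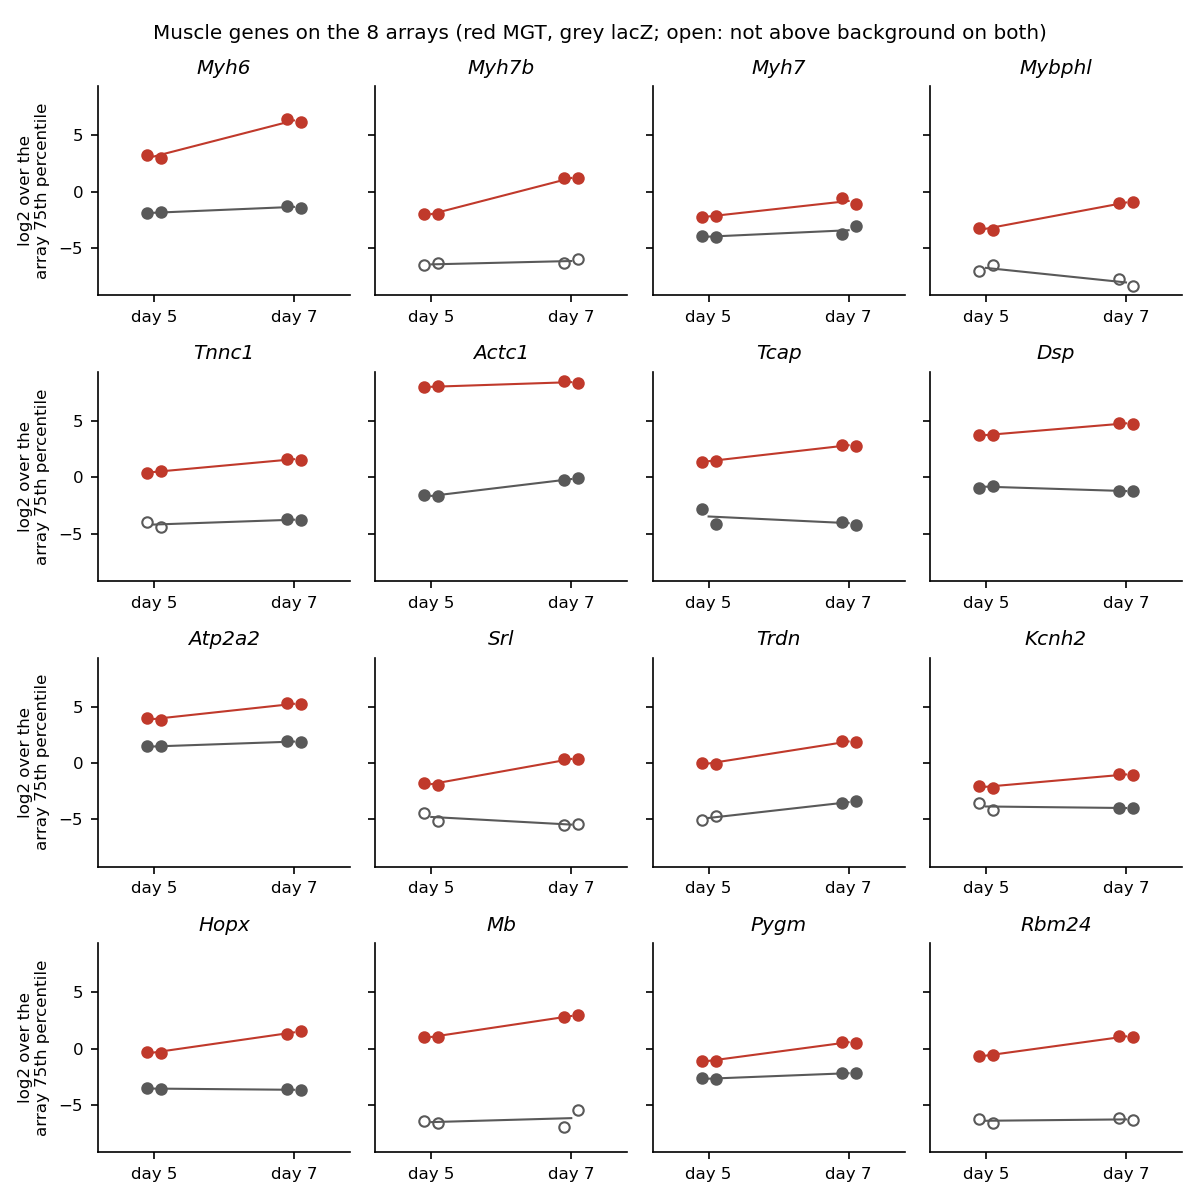
Levels (log2 relative to the array's 75th percentile) of 16 muscle genes on each array at days 5 and 7, MGT in red and lacZ in grey; open points were not well above background on both arrays of their group. All 16 were taken from genes that rose past the test with MGT, so their rise follows from the choice. They stand higher on both day 7 arrays than on both day 5 arrays with MGT, most steeply Myh6 and Myh7b. Lines join the means. Heart genes that were level or fell, such as Tnnt2, Ryr2 and Nppa, are not shown.

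Genes of other muscle types were counted in the same way. Skeletal muscle genes rose in 7 of 22 cases and fell in 2, against 9.78% and 9.45% of all genes, so the falls lie near the share of all genes. Fewer rose without either day 5 array or without the second day 7 array, and 3 rose with only probes above background on all arrays. Rbm24, a splicing factor of striated muscle, rose by 1.71 (SE 0.24, adjusted p = 0.00031), and Tnnt3, the fast skeletal troponin T, by 1.68 (SE 0.13, adjusted p = 2.84e-06). Smooth muscle and myofibroblast genes split, with 2 of 14 higher and 4 lower, against 9.78% and 9.45% of all genes. Tnc, the matrix protein tenascin C of healing tissue, fell by 1.23 (SE 0.19, adjusted p = 0.000635), and Actg2, smooth muscle gamma actin, fell by 0.76 (SE 0.16, adjusted p = 0.00448).

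Genes that answer interferon, the alarm signal against viruses, rose in MGT cells. Of 43 measured genes 36 rose and none fell, with a median step of 1.15. The count stayed between 30 and 38 when any 1 array of the comparison was left out. In lacZ cells 16 rose and none fell, with a median of 0.30. Without the first or the second lacZ day 5 array 8 and 9 rose. The difference of steps was called for 9 of the 43, all with the larger step in MGT, and 8 of them were well above background on all 8 arrays. Without either lacZ day 5 array or the second MGT day 7 array 5 were called, and without the second lacZ day 14 array 20. Zbp1, a sensor of nucleic acids in the Z form, read -2.14 and -2.03 at day 5 and -0.20 and 0.11 at day 7, a 4.11-fold rise (2.04, SE 0.12, adjusted p = 5.58e-07). With lacZ it stood near its later level on both days, at 1.13 and 1.19 and then 1.56 and 1.66, and the steps differed by 1.59 (adjusted p = 0.000298). Ifi44 rose from 0.09 and -0.06 to 2.22 and 2.08 (2.14, SE 0.16, adjusted p = 2.68e-06), with a difference from lacZ of 1.54 (adjusted p = 0.00178). Cxcl10, a chemokine that draws T cells, rose by 2.28 with MGT and 1.71 with lacZ, and Mx1, a GTPase that blocks influenza and related viruses, by 2.47 and 2.45. For Cxcl10 and Mx1 the difference of steps did not pass the test (adjusted p = 0.513 and 0.996).

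The rise came after a fall. From day 3 to day 5, a step that shares the day 5 arrays, 38 of the 43 interferon genes fell in MGT cells and 1 rose, with a median of -1.79. The MGT day 5 samples were thus below those of days 3 and 7. Isg15, a ubiquitin-like antiviral protein, read 6.93 and 6.86 at day 3, 4.83 and 4.90 at day 5 and 6.24 and 6.22 at day 7. Irf7, the factor that amplifies the interferon signal, read 1.00 and 0.98, then -1.20 and -1.31, then 0.19 and -0.04. With lacZ, Irf7 was at 1.31 and 1.28 at day 5 and 1.04 and 1.03 at day 7, and its steps differed by 1.59 (SE 0.24, adjusted p = 0.00224). Isg15 and Irf7 were chosen after their values were seen. All samples of days 3 and 5 lie on 1 slide, so this earlier fall does not cross slides, although days 3 and 5 occupy different rows of it.

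**Figure D3:**
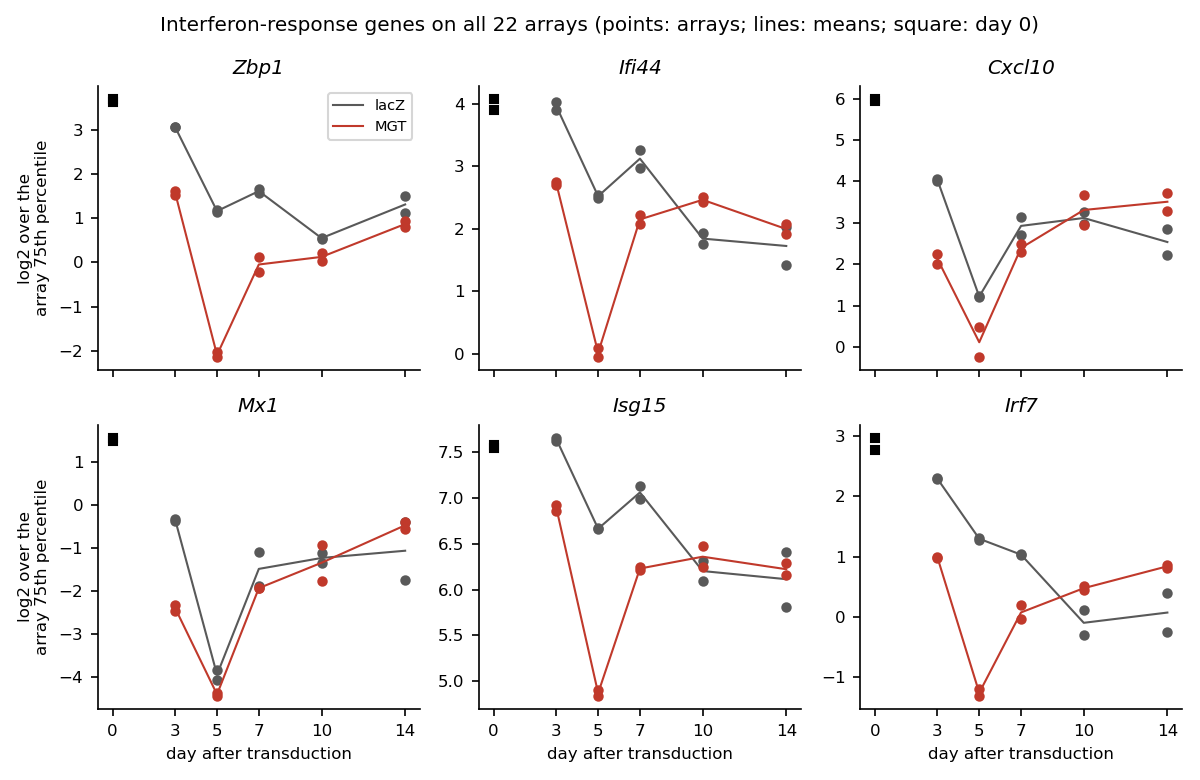
Levels (log2 relative to the array's 75th percentile) of Zbp1, Ifi44, Cxcl10, Mx1, Isg15 and Irf7 on every array by day, MGT in red, lacZ in grey and day 0 in black. The MGT points dip at day 5 for all 6 genes and are higher at day 7. Zbp1, Ifi44, Cxcl10 and Mx1 were named for large MGT rises, and Isg15 and Irf7 after their values were seen. Their rise thus follows from the choice, and picking by a rise from the shared day 5 arrays also favours an earlier fall.

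The start sites of these genes hold a letter pattern more often than those of other genes. The interferon-stimulated response element, to which STAT and IRF proteins bind, was spelled as GAAA, 2 free bases and GAAA, and searched on both strands in the 250 bases upstream of each RefSeq start (GRCm38.p6). It was found in 15 of the 33 interferon genes in that table (45.5%) and in 823 of all 27025 promoters (3.05%). The windows of 3 genes that rose in the step are shown with the match in capitals, where a match on the other strand reads TTTC, 2 free bases and TTTC: Cxcl10 (chr5:92348890-92349139, minus strand), and the neighbours Ifit3 (chr19:34583279-34583528, plus strand) and Ifit1 (chr19:34640639-34640888, plus strand), which encode proteins that bind foreign RNA.

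Cxcl10 promoter: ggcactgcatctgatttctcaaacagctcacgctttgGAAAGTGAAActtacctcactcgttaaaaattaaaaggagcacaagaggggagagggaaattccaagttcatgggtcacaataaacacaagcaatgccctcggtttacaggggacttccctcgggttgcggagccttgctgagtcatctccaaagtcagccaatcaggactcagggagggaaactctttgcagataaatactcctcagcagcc

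Ifit3 promoter: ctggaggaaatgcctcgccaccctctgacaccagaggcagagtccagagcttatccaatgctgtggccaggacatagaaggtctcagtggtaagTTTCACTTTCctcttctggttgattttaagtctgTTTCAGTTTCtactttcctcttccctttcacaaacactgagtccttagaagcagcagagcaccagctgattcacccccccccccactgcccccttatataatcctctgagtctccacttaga

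Ifit1 promoter: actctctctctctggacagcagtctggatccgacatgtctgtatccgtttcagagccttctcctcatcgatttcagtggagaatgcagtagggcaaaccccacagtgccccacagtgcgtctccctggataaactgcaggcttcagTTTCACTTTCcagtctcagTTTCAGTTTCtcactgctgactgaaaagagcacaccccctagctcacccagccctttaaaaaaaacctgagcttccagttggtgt

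Cxcl10 has its match at -213 from the start, Ifit3 has matches at -156 and -122, and Ifit1 at -104 and -85. Ifit1 rose by 1.71 (SE 0.19, adjusted p = 6.55e-05) and Ifit3 by 1.91 (SE 0.24, adjusted p = 0.000125). A match describes letters only and does not show binding.

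Inflammatory and acute-phase genes also rose, 23 of 37 with 1 lower, against 14 higher and 7 lower with lacZ; with only the 4 MGT arrays in the fit 11 rose. Hp, haptoglobin, the plasma scavenger of haemoglobin, rose from -0.93 and -1.63 to 0.87 and 1.09 (2.26, SE 0.21, adjusted p = 1.54e-05). Cxcl2, a chemokine for neutrophils, rose by 1.82 (SE 0.22, adjusted p = 0.000117). None of the 37 rose and 32 fell from day 3 to day 5. Macrophage markers moved alongside, in both kinds of culture: 10 of 21 rose and none fell with MGT, and 13 rose with lacZ, with medians of 0.86 and 1.45. The summed linear level of the 21 macrophage genes, in units of each array's 75th percentile, was 160 and 133 at day 5 and 185 and 237 at day 7 with MGT, against 98.7 and 100.5 and then 208 and 192 with lacZ; 1 of the 21 was not well above background at MGT day 5. Cx3cr1, the fractalkine receptor of resident macrophages, rose by 2.76 with MGT (SE 0.35, adjusted p = 0.000163) and by 3.92 with lacZ. Csf1r, the receptor that macrophages need to survive, stood at 3.52 and 3.42 and then at 3.64 and 3.79, a step of 0.24 (adjusted p = 0.67), and Cd68, a lysosomal protein, stepped by -0.15 (adjusted p = 0.897). Both were chosen for their role after their values were seen. Without the second day 5 array, or without the second day 7 array, 2 of the 21 markers passed. The part of these cells in the interferon and inflammatory steps was not tested; in lacZ cells the macrophage median was the larger of the 2 and the interferon median the smaller.

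Genes of cholesterol and sterol synthesis rose together in MGT and lacZ cells. With MGT 24 of 28 rose and none fell (median 0.76), and with lacZ 26 rose and none fell (median 1.21). The MGT count stayed between 21 and 26 without any 1 array. Idi1, which makes the isoprene unit dimethylallyl diphosphate, read 1.71 on both day 5 arrays and 3.23 and 3.48 at day 7 (1.65, SE 0.11, adjusted p = 9.87e-07; lacZ 1.98). Insig1, which holds the pathway's activator in check, rose by 1.56 (SE 0.27, adjusted p = 0.00162; lacZ 1.61). For 5 genes the step was lower with MGT than with lacZ by the test of the difference: Mvk, Mvd, Sqle, Lss and Tm7sf2, all enzymes of the pathway. The step of Mvd with MGT, 0.32, did not itself pass (adjusted p = 0.053). Sqle, squalene epoxidase, stepped by 0.45 against 1.47 (difference -1.02, SE 0.12, adjusted p = 0.000469). These 5 were picked out after their values were seen. Of them Tm7sf2 was lost without the second lacZ array of either day, the second MGT day 5 array or the first MGT day 7 array, with adjusted p up to 0.0612. It was also lost with only the 8 arrays of days 5 and 7 and in the deposited table (adjusted p = 0.0944).

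Cell division genes fell in both. With MGT 35 of 55 fell and none rose (median -0.72), and with lacZ 48 fell and 2 rose (median -1.24). Without the second day 7 array 23 fell with MGT. Kif20a, a kinesin of the cleavage furrow, read 2.65 and 2.63 at day 5 and 1.62 and 1.54 at day 7, a fall of 1.06 (SE 0.12, adjusted p = 8.57e-05). Ccnb2, a mitotic cyclin, fell by 1.03 (SE 0.16, adjusted p = 0.000795), and Ube2c, which marks cyclins for destruction, fell by 1.03 (SE 0.15, adjusted p = 0.000384). Their lacZ steps were larger, at -1.49, -1.63 and -1.70, but none of these 3 differences passed the test (adjusted p = 0.19, 0.177 and 0.0906). It passed for 5 members, all of mitosis: Ccnb1, Cdc20, Aurka and Prc1, whose fall was smaller with MGT, and Cenpa, which had a fall with lacZ alone. Cenpa, the histone of the centromere, read 2.87 and 2.79 and then 2.93 and 2.96 with MGT, against 2.27 and 2.33 and then 0.77 and 0.81 with lacZ, a difference of 1.62 (SE 0.20, adjusted p = 0.000674). These 5 too were picked out after their values were seen. Ccnb1 and Aurka were lost without the first MGT day 5 array or the second lacZ day 7 array, and Ccnb1 also without the second lacZ day 5 array and Aurka without the second MGT day 7 array, with adjusted p up to 0.0583 and 0.06. Ccnb1 was lost too after normexp background correction with quantile normalization (adjusted p = 0.0847), and Cdc20 in the deposited table (adjusted p = 0.05). The number of cell cycle genes called in the difference moved with the arrays in the fit: 3 without the first MGT day 5 array or the second lacZ day 7 array, 8 without the second lacZ day 14 array or with only probes above background on all arrays, 9 with a trended robust variance and 19 with only the 8 arrays of days 5 and 7, all with the higher step in MGT. Among inhibitors of the cycle and p53 targets, Cdkn2a, the p16 and p19 locus of senescence, rose by 0.85 with MGT (SE 0.12, adjusted p = 0.000439) and by 1.97 with lacZ, and the difference of -1.12 passed the test (adjusted p = 0.00256). Btg2, an antiproliferative p53 target, rose by 0.76, and Pmaip1, a p53 target that promotes cell death, fell by 0.48.

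**Figure D4:**
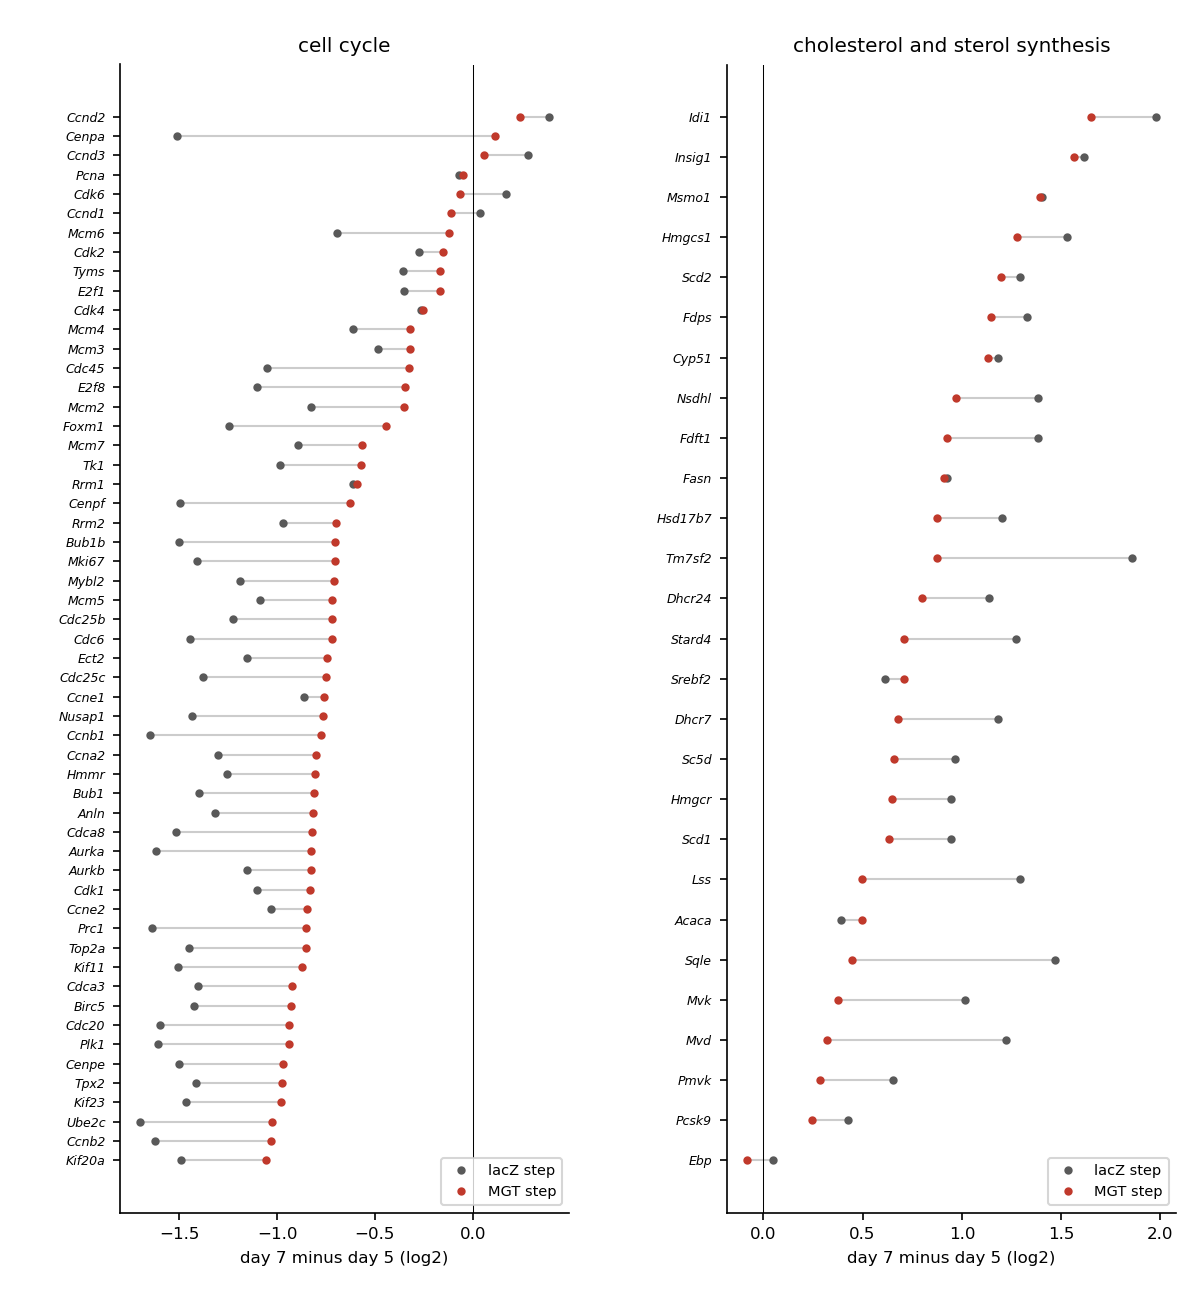
The MGT step and the lacZ step (day 7 minus day 5, log2) of each of the 55 cell cycle genes and of the sterol genes, 1 left out, joined by a line. Most cell cycle genes lie below 0 in both, with the lacZ point lower, and most sterol genes lie above 0 in both, with the lacZ point higher.

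The CCAAT box was common in the promoters of both lists, though not of these alone. CCAAT, searched on both strands in the same 250 bases, stood in 16 of 18 sterol genes of the RefSeq table (88.9%) and 33 of 45 cell cycle genes (73.3%), against 34.5% of 27025 promoters. It also stood in 20 of 25 genes of the unfolded protein and amino acid stress list (80.0%), whose members moved both ways. The windows of 2 genes of each list are shown with the box in capitals, as CCAAT or as ATTGG on the other strand: Idi1 (chr13:8885356-8885605, plus strand) and Insig1 (chr5:28071162-28071411, plus strand), which rose, and Ccnb2 (chr9:70421555-70421804, minus strand) and Ube2c (chr2:164769679-164769928, plus strand), which fell.

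Idi1 promoter: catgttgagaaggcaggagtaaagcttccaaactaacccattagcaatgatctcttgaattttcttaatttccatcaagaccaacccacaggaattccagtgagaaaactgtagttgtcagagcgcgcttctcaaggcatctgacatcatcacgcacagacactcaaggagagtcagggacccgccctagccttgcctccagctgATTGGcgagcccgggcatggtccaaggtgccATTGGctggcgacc

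Insig1 promoter: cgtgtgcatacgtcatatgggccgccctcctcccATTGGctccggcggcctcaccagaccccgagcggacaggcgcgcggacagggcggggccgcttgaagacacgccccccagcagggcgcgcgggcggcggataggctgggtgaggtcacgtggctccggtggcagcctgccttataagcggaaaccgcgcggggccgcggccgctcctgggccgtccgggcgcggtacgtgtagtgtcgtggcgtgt

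Ccnb2 promoter: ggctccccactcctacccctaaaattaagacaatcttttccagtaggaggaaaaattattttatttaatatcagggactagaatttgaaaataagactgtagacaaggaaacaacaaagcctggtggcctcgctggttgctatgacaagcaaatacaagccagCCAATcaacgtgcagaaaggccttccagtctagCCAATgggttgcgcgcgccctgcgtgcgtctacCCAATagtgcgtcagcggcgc

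Ube2c promoter: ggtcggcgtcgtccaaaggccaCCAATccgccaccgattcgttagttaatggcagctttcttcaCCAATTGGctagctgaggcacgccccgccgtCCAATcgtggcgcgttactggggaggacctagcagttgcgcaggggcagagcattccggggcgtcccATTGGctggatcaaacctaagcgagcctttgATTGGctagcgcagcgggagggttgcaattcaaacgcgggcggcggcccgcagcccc

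Idi1 has boxes at -45 and -14 from the start, Insig1 at -216, Ccnb2 at -87, -54 and -21, and Ube2c has 6, a pair of which overlap head to head. The sterol element TCACNCCAC, searched alike, was in 1 of 18 sterol genes (5.56%) and 1.03% of all promoters. TTTGAA, the CHR element of mitotic genes, was in 11 of 45 cell cycle genes (24.4%). It was in 16.3% of all promoters and in 11.8% of those of the genes tested.

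The fibroblast programme did not fall as a whole over these days. Of 32 fibroblast identity genes 13 rose and 4 fell, of 34 collagens and matrix proteins 16 rose and 3 fell, and of 22 matrix proteases and inhibitors 12 rose and 4 fell. In lacZ cells the counts were 14 and 3, 14 and 3, and 11 and 2. Without the second MGT day 7 array 10 matrix genes and 7 proteases rose. The 4 fibroblast genes that fell became 2 without the second day 5 array or either day 7 array, and the 3 matrix genes became 1 without either day 5 array or the second day 7 array. Mfap4, a microfibril protein of elastic fibres, read 2.03 and 2.43 at day 5 and 4.47 and 4.58 at day 7 (2.29, SE 0.14, adjusted p = 5.17e-07; lacZ 1.17; difference 1.12, adjusted p = 0.00509). Its relative Mfap5 went the other way, from 3.75 and 4.02 to 2.18 and 2.28, a fall of 1.65 (SE 0.09, adjusted p = 3.09e-07), against a lacZ step of -0.27 (difference -1.38, adjusted p = 0.000118). Eln, elastin, rose by 2.08 with MGT (SE 0.21, adjusted p = 3.48e-05) and by 2.11 with lacZ. Aspn, asporin, a small proteoglycan that binds TGF-beta, rose by 1.91 (SE 0.13, adjusted p = 1.08e-06) against 0.53, a difference of 1.38 (adjusted p = 0.000788). Fbln1, the matrix glycoprotein fibulin 1, rose by 2.15, and Ogn and Fmod, small leucine-rich proteoglycans, by 1.42 and 1.33. Adamts8, a secreted protease, rose from 1.62 and 1.34 to 4.12 and 3.80 (2.48, SE 0.12, adjusted p = 1.02e-07).

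Endothelial genes fell. Of 18 markers 9 fell and none rose with MGT, with a median step of -0.99, while with lacZ 3 fell and 3 rose, though without either lacZ day 5 array or the second lacZ day 7 array 0 fell and 1 rose. Tested directly, the steps differed for 3 of the 18, all lower with MGT, against 2.53% of all genes. Of the 14 well above background on all 8 arrays 1 differed. After normexp background correction with quantile normalization, and in the deposited table, 0 of the markers had a lower step with MGT. From day 3 to day 5, too, 11 of the 18 had fallen with MGT and none had risen. Egfl7, a secreted protein of vessel walls, read 1.94 and 1.95 at day 5 and 0.02 and 0.16 at day 7, a fall of 1.86 (SE 0.30, adjusted p = 0.000995). With lacZ it read 3.40 and 3.38 and then 2.65 and 2.17, and the difference of -0.88 did not pass the test (adjusted p = 0.301). The count is not firm: 5 of the 18 passed without the first day 5 array or the second day 7 array, and 3 without the first day 7 array. Sox17, a factor of arterial endothelium, fell by 1.81 (adjusted p = 0.00593), but without the first day 7 array its adjusted p was 0.0534. Of 14 epicardial and mesothelial markers 7 rose and 1 fell. Aldh1a1, a retinoic acid synthesis enzyme, rose by 0.89, and Krt19, a keratin, fell by 1.05. Of 9 pericyte markers 2 rose and 2 fell, against 9.78% and 9.45% of all genes. Among them were Ndufa4l2, a mitochondrial protein raised by low oxygen, which rose by 1.86, and Cspg4, the NG2 proteoglycan, which fell by 1.10. Of 8 glial markers 2 rose, one of them Ngfr, the low-affinity neurotrophin receptor, by 2.39 (SE 0.15, adjusted p = 5.88e-07). Of 6 blood and lymphocyte markers 0 passed limma's test with MGT or with lacZ, and at an unadjusted p under 0.05 it was 0 and 1.

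Signalling pathways changed in part. Of 23 TGF-beta pathway genes 9 rose and none fell, among them Ltbp4, which stores the latent growth factor in the matrix (0.93, SE 0.08, adjusted p = 1.34e-05), and Pmepa1, a feedback inhibitor (0.82, SE 0.11, adjusted p = 0.000278); the count was 4 without the second day 5 array and 5 without either day 7 array. Of 31 Wnt pathway genes 10 rose and none fell, with Rspo2 and Rspo1, secreted amplifiers of Wnt, rising by 1.52 and 1.05 and Dkk3, a relative of the Wnt antagonists, by 1.07; with only the 4 MGT arrays 6 rose. Of 19 Notch genes 1 rose and 4 fell, against 9.78% and 9.45% of all genes, with a median step of -0.06. Jag1, a Notch ligand, fell by 0.70 (SE 0.07, adjusted p = 2.91e-05) and the receptor Notch3 by 0.70 (SE 0.11, adjusted p = 0.000628). With lacZ these 2 stepped by 0.075 and 0.18, and for Jag1 the difference of -0.78 passed the test (adjusted p = 0.000744). Dlk1, a non-canonical ligand of the family, fell by 1.23 with MGT (SE 0.16, adjusted p = 0.000154) and rose by 0.62 with lacZ. Of 27 BMP pathway genes 7 rose and 1 fell, including the ligand Bmp4 at 0.62 (SE 0.10, adjusted p = 0.000659); without the first day 7 array 4 rose.

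Energy metabolism was mostly level. Over all genes 9.78% rose and 9.45% fell with MGT, the shares against which each count in this paragraph stands. Of 52 oxidative phosphorylation genes none rose and 1 fell, with a median step of -0.04, close to the -0.03 of all genes. Of 20 citrate cycle genes 3 rose and 1 fell, and of 28 fatty acid oxidation genes 5 rose and 1 fell, led by Acaa2, the last enzyme of the spiral, at 0.80 (SE 0.11, adjusted p = 0.000231). Glycolysis genes rose in 9 of 22 cases and fell in none, with 5 risen without the second day 5 or the second day 7 array. Pgam2, the muscle phosphoglycerate mutase, rose by 0.90 (SE 0.12, adjusted p = 0.000188), and Aldoc, an aldolase, by 0.99 (SE 0.19, adjusted p = 0.00316). Of 37 splicing factors 3 rose and 6 fell. Celf1, a regulator of muscle splicing, fell by 0.55 with MGT and by 0.57 with lacZ. Of 32 chromatin regulators 3 rose and 5 fell, with Ezh2, the writer of H3K27 methylation, falling by 0.74 (SE 0.08, adjusted p = 6.64e-05). Of these 5 chromatin genes 3 passed without the first day 5 array, 2 without the second and 1 without the second day 7 array, and 1 of the 3 that rose passed without the second day 5 or the first day 7 array. Of 26 genes of the unfolded protein and amino acid stress responses 7 rose and 4 fell, with 4 risen without the first day 5 array or the second day 7 array, and 0 fallen without the second array of either day. Chac1 and Trib3, both targets of the stress factor ATF4, rose by 0.80 and 0.68.

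**Figure D5:**
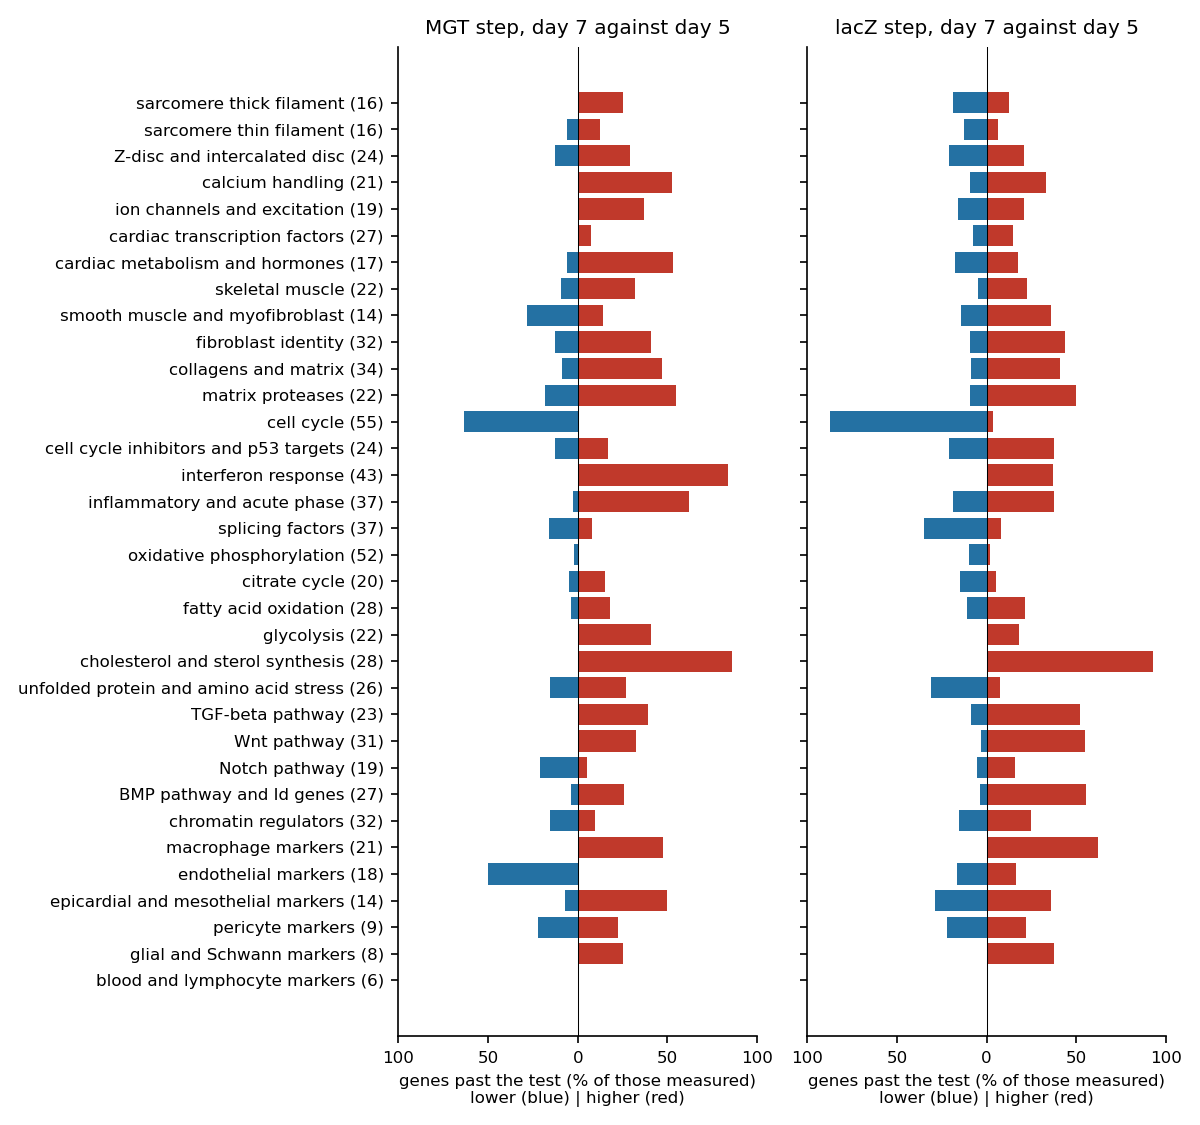
Percent of the measured members of each gene list that passed the test from day 5 to day 7, higher in red and lower in blue, for MGT and for lacZ. Interferon and sterol genes show the longest bars to the higher side with MGT, at 36 of 43 and 24 of 28, and cell cycle genes the longest to the lower side, at 35 of 55.

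Beyond the lists, the largest rises among genes well above background on all 4 MGT arrays mixed muscle, neural and immune genes. Ccl12, a chemokine for monocytes, rose 15.9-fold (3.99, SE 0.46, adjusted p = 8.19e-05), from -3.91 and -4.92 to -1.14 and 0.29, after falling by 7.01 from day 3 to day 5. Slc13a3, a dicarboxylate transporter, rose 12.8-fold with MGT (3.68, SE 0.36, adjusted p = 2.54e-05) and by 5.0 with lacZ. Ccl12, too, rose with lacZ, by 3.43. The next genes were muscle and neural ones. Tuba8, an alpha tubulin of muscle and testis, rose from -3.62 and -3.87 to -0.82 and -0.35 (3.16, SE 0.24, adjusted p = 3.5e-06). Pcp4l1, a small relative of Pcp4, rose by 3.20 (SE 0.42, adjusted p = 0.000216). Dhrs7c, a dehydrogenase of the sarcoplasmic reticulum of muscle, rose by 2.86 (SE 0.36, adjusted p = 0.000142), and Grin2c, a subunit of the NMDA glutamate receptor, by 2.67 (SE 0.29, adjusted p = 5.17e-05). For Dhrs7c and Grin2c neither day reached background on both lacZ arrays, so no lacZ step is given. Several of the largest falls followed a rise from day 3 to day 5. Both steps use the day 5 arrays, so picking genes by a large later step favours an opposite earlier one. The same holds for the earlier fall of Ccl12. Foxe3, a forkhead factor of the lens, read -0.66 and -0.94 at day 5 and -5.89 and -5.94 at day 7, a 34.7-fold fall (-5.12, SE 0.56, adjusted p = 5.17e-05), and it had risen by 4.71 from day 3. Krt13, a keratin of stratified epithelium, fell by 2.93 (SE 0.41, adjusted p = 0.000311) after a rise of 2.36, and Eya2, a cofactor of homeodomain factors, fell by 2.65 (SE 0.35, adjusted p = 0.000216) after a rise of 1.20. Mycl, a member of the Myc family, fell by 2.54 (SE 0.15, adjusted p = 5.66e-07), from -3.24 and -2.78 to -5.57 and -5.53, and by 1.27 with lacZ; it had already fallen by 0.54 from day 3 to day 5.

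Some genes crossed the detection limit. With MGT 713 genes were well above background on both day 7 arrays and on neither day 5 array, and 24 the reverse; with lacZ the counts were 922 and 14. Of the MGT genes 127 and 20 passed the test. The lowest level that counted as well above background was lower at day 7 (-8.45 and -8.42) than at day 5 (-7.29 and -7.60), so more dim genes could pass at day 7. For genes that crossed, a bound was computed from the mean of the bright day against the floor of the dim one. It holds for the main processing only. Iqsec3, an exchange factor of inhibitory synapses, was at least 27.96-fold higher at day 7 (adjusted p = 8.58e-06). Matn1, a cartilage matrix protein, was at least 19.25-fold higher (adjusted p = 0.000355), Ptpn5, a neuronal phosphatase, at least 15.23-fold (adjusted p = 0.000122), Adra2c, an adrenergic receptor, at least 8.81-fold (adjusted p = 0.000323), and C5ar1, a complement receptor of myeloid cells, at least 8.62-fold (adjusted p = 0.000513). In the other direction Klk1b26, a kallikrein protease, was at least 74.75-fold lower at day 7 (adjusted p = 6.77e-06), reading -2.21 and -1.72 at day 5. Htr1d, a serotonin receptor, was at least 40.37-fold lower (adjusted p = 3.06e-05), Vmn2r25, a vomeronasal receptor, at least 38.10-fold (adjusted p = 2.88e-05), and Cdcp3, a CUB domain protein, at least 36.11-fold (adjusted p = 0.00104). Olfr104-ps, an odorant receptor pseudogene, was at least 136.93-fold lower, but 1 of its day 5 spots was left out as an outlier and its value rests on the other array. The sizes depend on the processing. Over the alternatives the MGT step of Klk1b26 ran from -6.53 to -1.67, that of Htr1d from -5.85 to -2.26 and that of Cdcp3 from -6.39 to -1.94. On the rising side Iqsec3 ran from 2.82 to 4.97, Adra2c from 1.00 to 3.33 and C5ar1 from 1.28 to 3.60. These genes kept their call in each alternative that tested them. Klk1b26 also read -8.05 on both MGT day 3 arrays. In the whole series 4 genes were above background on both arrays of MGT day 5 and on no other array: Mixl1, Olfm2, Olfr881 and Vmn2r25.

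The difference of steps picks genes that moved unequally in the cultures, through a change with MGT, with lacZ or with both. On the side of a larger step in MGT stood Gsta1, a glutathione transferase, which read 0.64 and 0.66 and then 2.05 and 2.39 with MGT but -1.52 and -1.42 and then -5.13 and -4.12 with lacZ, a difference of 4.73 (SE 0.51, adjusted p = 0.000288). Sprr1a, a cornified envelope protein that is also induced in stressed heart muscle, read -1.32 and -1.40 and then 0.99 and 1.58 with MGT and fell with lacZ from -0.49 and -0.55 to -2.04 and -1.97 (difference 4.12, SE 0.26, adjusted p = 8.86e-06). Aqp1, a water channel, rose by 1.61 with MGT and fell by 1.30 with lacZ (difference 2.91, SE 0.29, adjusted p = 0.000168). In these 3 genes the 2 cultures moved in opposite directions, though the MGT rise of Gsta1 lost its call with quantile normalization (limma's adjusted p = 0.0971). The opposite side was led by Fgl2, a secreted fibrinogen-like protein. It was level with MGT, at 2.03 and 1.92 and then 2.02 and 2.01, and rose with lacZ from -1.40 on both arrays to 2.16 and 2.30, so the lacZ level reached the one MGT already had (difference -3.59, SE 0.13, adjusted p = 1.47e-08). Scg2, a granin of secretory granules, rose by 0.98 with MGT from 6.27 and 6.43, and by 3.17 with lacZ from 0.71 and 0.84 (difference -2.19, SE 0.19, adjusted p = 8.23e-05). Kank4, an adaptor of the cell cortex, differed by -2.45 (SE 0.23, adjusted p = 0.000118), and Scube1, a secreted EGF-domain protein, by -2.37 (SE 0.27, adjusted p = 0.000369).

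The neighbouring steps were unequal in size. From day 3 to day 5, within 1 slide, 4961 genes (27.4%) were called in MGT cells, 2424 higher and 2537 lower. From day 7 to day 10, also within 1 slide, 823 (4.55%) were called, 400 higher (2.21%) and 423 lower (2.34%). Both of these steps go from row 1 of their slide to row 2, and the part of the row was not tested. The 3 steps share samples, so their counts are given side by side only. Without the second lacZ day 14 array they were 6394, 4786 and 1518. Without any 1 of its own 4 arrays the earlier step gave 3018 to 3415 calls and the later 280 to 419, and with only its own 4 arrays in the fit the later gave 2. Of the 140 heart genes 46 rose from day 3 to day 5, 42 from day 5 to day 7 and 10 from day 7 to day 10. Single arrays bear on these: 29 rose in the earlier step without the second day 3 array, and 3 to 6 in the later step without any 1 of its arrays. Myh6 rose by 0.80, then 3.20, then 0.87, reaching 7.21 and 7.14 at day 10. Myh7b rose by 0.80, 3.21 and 1.22. Dsp rose by 1.09 and 1.04 and then stepped by 0.14 (adjusted p = 0.69). For Atp2a2 the sequence was 0.57, 1.35 and -0.06, the last not past the test (adjusted p = 0.839). Of the 43 interferon genes 1 rose and 38 fell, then 36 rose, then 1 rose. Of the 55 cell cycle genes 1 fell, then 35, then 2.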

How the data were processed

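RNA of 22 samples was read on 1-colour Agilent mouse arrays, with 2 samples in each of 11 groups. The deposited scanner files give spot intensity after background subtraction and detrending by Agilent Feature Extraction 10.7.3.1, per the file headers, which place the probes on mm9. A deposited table of intensity for the whole series was used as an alternative. It is on a linear scale, and none of the sources used here says how it was made; the submitters' processing notes name limma.

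Each log2 processed signal was set relative to the 75th percentile of the array's spots, controls left out. Outlier spots were left out and the spots of a probe averaged. A probe was kept if any group had it well above background on both of its arrays (38843 kept, 16838 left out). Of 55681 probes 26156 were named through a RefSeq accession, 3135 by current symbol and 911 by an older one, and 25479 had no match. The probe with the highest mean stood for a gene (4727 genes had several). Group means of all 22 arrays were fitted in limma 3.58.1 (R 4.3.3), with 11 residual degrees of freedom and Benjamini-Hochberg adjustment over 18089 genes at 0.05. Samples with a left-out spot are missing from that gene's fit; 17950 genes had all. The fit was tested on simulated data. The number of arrays limits the precision.

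Genes named are the 3 delivered factors; the 12 largest rises and falls past the test and well above background on all 4 MGT arrays; the 5 largest bounds each way among called genes above background on 1 day only; the 6 largest differences of steps each way on genes well above background on all 8 arrays; and, for each list, its largest steps past the test, at most 4, or its largest step where none passed. Clone and predicted names were left out. Results on some genes that the rule names are not reported here. The members and the lists were chosen with earlier results of these data known. The alternatives tried were other background correction, scaling, probe filters, probe summaries, variance models, sets of arrays, the replicate number as a block and each array left out.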

Additional observations from a re-analysis of the deposited data

Results flagged for a closer look

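The MGT and lacZ steps differed in direct test for 941 genes, and 45 of those are named here with the difference of steps (MGT minus lacZ, log2). All 45 were well above background on all 8 arrays of days 5 and 7.

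In a first set the cultures moved in opposite directions, with MGT up and lacZ down, both past the test: Gsta1 by 4.73, Sprr1a by 4.12, Sybu by 3.47, Aqp1 by 2.91, Col2a1 by 2.68 and Wnt5b by 0.98. Sybu, a linker of vesicles to kinesin, rose by 2.24 and fell by 1.22, and Col2a1, the collagen of cartilage, rose by 1.30 and fell by 1.38. Wnt5b, a non-canonical Wnt ligand, rose by 0.70 and fell by 0.28. The reverse held for Kank4 at -2.45, Dlk1 at -1.85, Lmod1 at -0.99 and Pmaip1 at -0.75. Lmod1, an actin nucleator of smooth muscle, fell by 0.55 with MGT and rose by 0.44 with lacZ. The MGT step lost its call with quantile normalization for Gsta1 (limma's adjusted p = 0.0971) and Lmod1. With only the 8 arrays of days 5 and 7 in the fit it was lost for Col2a1, Kank4 and Lmod1. Leaving out some single MGT arrays also ended it for Gsta1, Col2a1, Kank4 and Lmod1, so their opposite movement is not firm. For Agt, angiotensinogen, which differed by 3.01, the lacZ fall of 1.90 passed and the MGT step of 1.11 did not (adjusted p = 0.175 in limma).

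Another set rose with MGT, and with lacZ rose less or did not pass the test. It held muscle, interferon and matrix genes. Of the muscle genes Myh6 differed by 2.68, Tcap by 2.01, Hopx by 1.90, Dsp by 1.43, Pygm by 1.17, Atp2a2 by 0.91 and Pgam2 by 0.62. Zbp1 differed by 1.59, Ifi44 by 1.54 and Cxcl2 by 1.22. Of the matrix and fibroblast genes Aspn differed by 1.38, Mfap4 by 1.12, Tgfbi by 1.10, Adamts8 by 0.75, Fbln1 by 0.71, Cd34 by 0.63 and Ogn by 0.52. Ngfr differed by 1.87, Acaa2 by 0.63, Chac1 by 0.57 and Suclg1, a citrate cycle subunit, by 0.45.

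On the other side stood genes that fell with MGT, and with lacZ fell less or did not pass the test: Krt13 by -2.34, Adam23 by -2.22, Mfap5 by -1.38, Mycl by -1.27, Cdkn1c by -1.26, Notch3 by -0.88, Jag1 by -0.78 and Mbnl3, a muscleblind splicing regulator, by -0.67. Adam23, a membrane protein of neurons, fell by 1.45 with MGT, and its lacZ step of 0.77 did not pass. Genes that rose with lacZ, and with MGT rose less or did not pass, made up the rest: Fgl2 at -3.59, Scube1 at -2.37, Scg2 at -2.19, Cdkn2a at -1.12 and Actc1 at -1.08. Actc1, cardiac actin, rose by 0.41 with MGT and by 1.49 with lacZ.

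The call was lost with any 1 of the 8 arrays left out for Adam23, Agt, Chac1, Mbnl3 and Pgam2, with limma's adjusted p up to 0.0709, 0.112, 0.117, 0.151 and 0.135. For 10 genes some single arrays ended it: Acaa2 (adjusted p up to 0.104), Adamts8 (0.0882), Cdkn1c (0.084), Cxcl2 (0.146), Fbln1 (0.0823), Krt13 (0.128), Lmod1 (0.0707), Ogn (0.126), Suclg1 (0.074) and Tgfbi (0.169). Among these, Lmod1 was lost without the second array of any of the 4 groups, and Suclg1 without the second lacZ day 5, first MGT day 5 or second MGT day 7 array. For Cxcl2 each array but the first MGT day 7 ended the call, for Krt13 each but the second lacZ day 5, for Tgfbi each but the first MGT day 5, and for Ogn each but the first MGT array of either day. Acaa2 was lost without either lacZ day 5 array, the second MGT day 5 array, the first lacZ day 7 array or either MGT day 7 array, and Adamts8 without those other than the second MGT day 7 array. Cdkn1c was lost without either lacZ day 5 array, the first MGT day 5 array, the first lacZ day 7 array or either MGT day 7 array. Fbln1 was lost without the first array of either culture at day 5, the second lacZ day 7 array or either MGT day 7 array. Of these 15, 9 did not pass in the deposited table (Agt, Chac1, Adamts8, Cxcl2, Fbln1, Krt13, Lmod1, Suclg1 and Tgfbi), nor did Notch3, Sybu, Cd34 and Mycl, and Tcap did not with only the 8 arrays of days 5 and 7 in the fit (adjusted p = 0.123).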

How the results depend on the processing

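The MGT step gave 3480 calls, between 2745 (the deposited table) and 4786 under most alternatives. It gave 2153 with only its own 4 arrays in the fit, and 1872 to 2242 with 1 of them left out. Leaving out 1 array gave 3017 to 3836 calls for the lacZ step, 507 to 726 for the difference of steps, 3018 to 3415 for day 3 to 5 and 280 to 419 for day 7 to 10. The deposited table gave 556 differences of steps, and the day 7 to 10 step gave 2 calls with only its own arrays. Without the second lacZ day 14 array, an alternative chosen after seeing the data, 1681 genes differed between the steps, and the calls were 4786 for MGT, 6277 for lacZ, 6394 for day 3 to 5 and 1518 for day 7 to 10. The median standard error of a step was 0.0981 without it and 0.125 with it. For the other settings the cause was not tested. With the replicate number as a block the counts were 3436 for the MGT step, 4888 for lacZ, 900 for the difference, 4898 for day 3 to 5 and 780 for day 7 to 10. Same-numbered samples did not deviate together (correlation -0.0494 for MGT and -0.0659 for lacZ between days 5 and 7), so the numbers pair nothing. The total calls of these 5 comparisons changed by less than 1.5 times under normexp with quantile normalization, other scaling, other filters or probe means. Within them, the lacZ falls went from 2431 to 4220 with no filter on dim probes, and the counts past 2-fold moved further. Of the named genes' values under alternatives, 2676 kept the direction and the call of the MGT step, 200 lost the call, 4 gained it and 0 reversed; for the difference of steps 1225 kept both, 246 lost the call and 0 reversed. Of 612 list medians 52 moved by more than the spread between samples, and 21 had the other sign. Dim probes have only 2 readings a day, and floors differ between days.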

Other observations

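Of 24 cell cycle inhibitors and p53 targets 6 had a lower step with MGT than with lacZ by the test of the difference and none a higher one, and 5 to 7 did so with any 1 array left out. Over all genes 2.53% had a lower and 2.68% a higher step with MGT. Besides Cdkn2a and Pmaip1 these were Cdkn1c, the p57 inhibitor (-0.81 with MGT, 0.44 with lacZ), Cdkn2b, the p15 inhibitor (0.42 and 1.45), Trp53inp1, a p53 target (-0.13 and 0.60), and Gadd45b, a stress gene (-0.33 and 0.33). Cdkn2b, Trp53inp1 and Gadd45b were chosen after their values were seen.

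Of 27 BMP pathway genes 15 rose with lacZ, where 13.9% of all genes rose, and 7 with MGT, where 9.78% did, although without the second lacZ day 5 array 8 rose with lacZ. The difference of steps was called for 5 of the 27, against 5.2% of all genes. Fst, follistatin, which traps activin and BMP, stepped by -0.07 with MGT and 1.47 with lacZ. Id4, an inhibitor of helix-loop-helix factors, stepped by 0.04 and 1.08, its relative Id3 by -0.10 and 0.44, and the signal transducer Smad9 by 0.05 and 0.97. Bmper, a secreted BMP modulator, went the other way, with 0.37 and -0.08. These 5 were chosen after their values were seen, and with any 1 of the 8 arrays of days 5 and 7 left out the list had 1 or 2 calls on the lower side in place of 4.

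Detection in single groups was uneven across the series. Genes well above background on both arrays of 1 group and on no other array numbered 206 at MGT day 14, 49 at lacZ day 3 and 30 at day 0. In the other 8 groups there were 1 to 8, with 4 at MGT day 5 and 5 at MGT day 7. Both MGT day 14 arrays also had the highest shares of spots well above background, 70.95% and 68.9%. Their lowest levels that counted as well above background were the lowest of the series, -8.95 and -8.78. The part of this detection limit in the counts was not tested.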
